A study of Mus musculus with 16 samples.

Results

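The genes described here encode the machinery that copies DNA in S phase. The rule that picks them reads symbols only and uses no measured value, but the list of names was drawn up with earlier results of these data known. Every row of the 4 deposited gene tables whose identifier belonged to 1 of 47 named mouse genes was taken. All 47 of the 55414 gene rows were found, and all 47 passed the minimum level in each of the 4 tables. They were sorted by role into 11 groups, from origin recognition to the supply of deoxyribonucleotides.

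Replication starts at origins, which the origin recognition complex (ORC) marks. Cdc6 and Cdt1 then load the MCM2-7 ring, the core of the replicative helicase, and geminin (Gmnn) blocks repeated loading. The kinase Cdc7 with its partner Dbf4, together with Mcm10, Cdc45 and the GINS complex, turns the ring into an active helicase. Polymerase alpha-primase lays down primers, polymerase epsilon and polymerase delta extend the new strands, and the sliding clamp Pcna, set in place by the RFC loader, holds them on the template. Fen1 and Lig1 finish and join the short Okazaki fragments of the lagging strand, RPA coats single-stranded DNA, and ribonucleotide reductase makes the building blocks. Among the germ cells of the juvenile testis, DNA is copied in dividing spermatogonia and once more in preleptotene spermatocytes. That is the last replication before the meiotic divisions, and DNA is not copied in the later stages of meiotic prophase.

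The libraries were made from total RNA of whole mouse testes at postnatal day 14 (P14) or 16 (P16). Mice belonged to a control group, a Cre control group or a group with conditional knockout of Ythdc2, termed cKO, a gene whose product is an RNA helicase with a domain for methylated adenosine. All animals had received tamoxifen at 10 mg/ml on P12 and P13, the controls included. Tamoxifen activates an inducible Cre recombinase, and the promoter that drives it is not described in the labels. The sample labels describe no genotype behind the 2 control names, while the column names call control WT and Cre control Ctrl. Each stage had 2 control and 3 cKO libraries, and Cre control had 2 libraries at P14 and 4 at P16. A first rRNA depletion kit (Ribo-Zero) served the controls and cKO libraries 1 and 2 of each stage, and a second (NEBNext) served the Cre controls and cKO library 3 of each stage. The first kit's 8 libraries held 22220565 to 27531529 reads on genes, and the second kit's 8 held 14494867 to 23200252. Nothing in the labels says whether libraries of a group came from separate animals, so the tests measure only the spread between these libraries. Unless another scale is named, a level is the deposited normalized value of 1 table, and such values are not comparable between tables.

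Ythdc2 was low in each cKO library. In the table with controls at P14 it stood at 2027 and 2262 in control and at 658 and 753 in cKO, and in that at P16 at 2666 and 2609 in control and at 502 and 541 in cKO. In the P14 table with Cre controls it stood at 1352 and 1454 in Cre control and at 533, 613 and 323 in cKO. In the P16 table with Cre controls it stood at 1711, 1392, 2633 and 1597 in Cre control and at 411, 446 and 226 in cKO. Its groups did not overlap in any of these tables. Markers of the labelled tissue were present, with Sertoli cell and spermatocyte marker lists among the highest summed levels, while the Leydig cell gene Insl3 was listed at 0 in 3 of 4 libraries of the P16 table with controls and in 7 of 7 of the P16 table with Cre controls.

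Promoters of these genes are shown first, because many genes of S phase are known targets of E2F transcription factors. RefSeq promoter entries (assembly GRCm38.p6, from 250 bases before to 50 after an annotated start) existed for 39 of the 47 genes. A script searched them on both strands for 4 words of the E2F type, TTTCCCGC, TTTCGCGC, TTTGGCGC and TTTGCCGC, which can overlap one another. Such a word stood in the entries of 16 of the 39 genes (41.0%). The share was 2.60% of the 27025 genes with an entry and 4.40% of those among them that were tested at P16. Among the genes with an entry that were called lower in cKO at P16 it was 7.20%. Within the replication genes, the words were found in 13 of 33 called lower (39.4%) and in 3 of 6 not called, which were Mcm7, Pola1 and Pole2. The word CCAAT, which NF-Y binds, stood in 59.0% of the replication genes with an entry and 41.1% of all, and the cell cycle element TTTGAA in 17.9% and 20.2%. Among the genes with an entry that were tested at P16, CCAAT stood in 42.87% and TTTGAA in 14.65%. The sequences that follow belong to the 4 genes with the largest falls in cKO at P16 among those with an E2F-type word, and Mcm7, which holds such words and was not called. Capitals mark the E2F-type words, read 5′ to 3′ on the strand of the gene. In Mcm5, 2 words overlap.
Lig1, chr7:13278576-13278875, plus strand: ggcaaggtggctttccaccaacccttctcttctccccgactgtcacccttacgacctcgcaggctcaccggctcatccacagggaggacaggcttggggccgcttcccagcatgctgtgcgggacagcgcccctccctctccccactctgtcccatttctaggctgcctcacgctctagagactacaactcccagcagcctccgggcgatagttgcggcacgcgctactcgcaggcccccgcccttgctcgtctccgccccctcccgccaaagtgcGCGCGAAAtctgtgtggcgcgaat
Mcm5, chr8:75109259-75109558, plus strand: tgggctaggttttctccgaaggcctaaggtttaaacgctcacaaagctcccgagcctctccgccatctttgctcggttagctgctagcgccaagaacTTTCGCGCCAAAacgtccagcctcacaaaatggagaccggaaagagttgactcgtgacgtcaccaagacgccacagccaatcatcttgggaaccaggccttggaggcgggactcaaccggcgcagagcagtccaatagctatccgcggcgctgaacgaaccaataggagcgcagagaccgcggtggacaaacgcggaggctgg
Orc1, chr4:108579204-108579503, plus strand: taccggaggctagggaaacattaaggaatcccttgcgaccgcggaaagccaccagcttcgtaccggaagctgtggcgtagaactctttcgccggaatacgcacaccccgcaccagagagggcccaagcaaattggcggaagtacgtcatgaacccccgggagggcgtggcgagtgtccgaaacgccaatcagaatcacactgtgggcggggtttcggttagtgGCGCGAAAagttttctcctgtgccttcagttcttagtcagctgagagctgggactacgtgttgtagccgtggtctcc
Gins3, chr8:95633309-95633608, plus strand: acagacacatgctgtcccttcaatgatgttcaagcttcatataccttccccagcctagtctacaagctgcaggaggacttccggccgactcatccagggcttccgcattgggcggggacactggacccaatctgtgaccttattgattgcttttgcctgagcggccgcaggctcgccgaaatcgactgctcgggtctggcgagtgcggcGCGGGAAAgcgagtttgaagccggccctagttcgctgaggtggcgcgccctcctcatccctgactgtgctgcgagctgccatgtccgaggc
Mcm7, chr5:138171834-138172133, minus strand: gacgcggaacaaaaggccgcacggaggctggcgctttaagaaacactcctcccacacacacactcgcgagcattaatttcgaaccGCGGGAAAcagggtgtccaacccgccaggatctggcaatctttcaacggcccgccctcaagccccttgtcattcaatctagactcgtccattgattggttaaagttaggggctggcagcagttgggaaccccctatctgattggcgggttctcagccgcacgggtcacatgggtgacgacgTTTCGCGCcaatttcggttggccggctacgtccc
A match of letters is a description of the sequence, and binding was not measured.

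The comparison of cKO with control at P16 used 2 libraries of each group from the first kit. The transcripts of the replication machinery fell together: 40 of the 47 genes were called lower in cKO and none was called higher (limma, Benjamini-Hochberg adjusted p under 0.05 over all genes). Of all 17986 genes tested, 19.9% were called lower and 18.6% higher. In direction, 46 of 47 were lower, with a median log2 change of -0.44 against -0.000495 over all genes. The changes ran from -1.01 for Lig1 to 0.06 for Orc4. In 42 genes both cKO libraries lay below both controls and in 1, Orc4, both lay above, where 35.4% and 34.2% of all genes tested did so. Whole testes were sequenced, so fewer cells of a type and less RNA per cell cannot be told apart. The count of 40 called lower was 40 with edgeR and 38 with DESeq2. It was 22 without the mean trend in limma's variance estimate, where 1065 of all 17986 genes were called lower. It was also 22 when both kits were fitted together with kit as a covariate, where 1492 of all 19932 genes were called lower. That fit joined control and Cre control into 1 group.

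**Figure D1:**
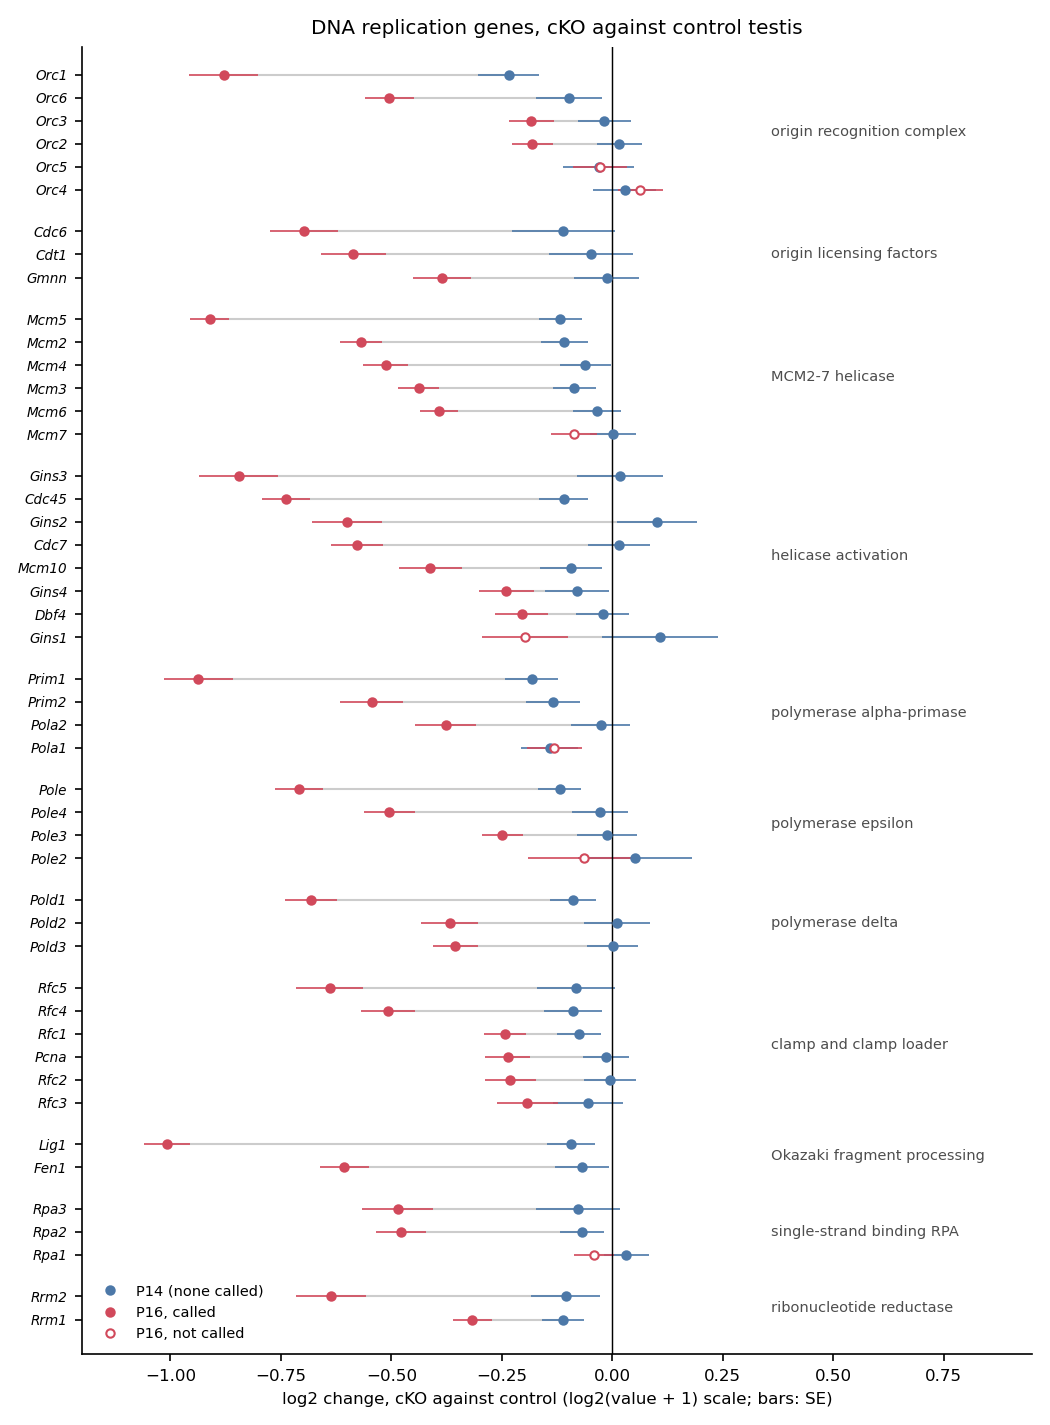
Log2 change (cKO against control, log2(value + 1) scale) of each of the 47 replication genes at P14 (blue) and P16 (red, filled where called), grouped by role. Points are limma estimates from 2 libraries a group and bars are standard errors. The P14 points lie near 0, while 40 of the 47 P16 points were called lower.

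Among the subunits of ORC, the fall was uneven, with 4 of 6 called lower. Orc1 (ENSMUSG00000028587), the subunit whose amount is known to vary through the cell cycle, stood at 841 and 873 in control and at 437 and 496 in cKO. The cKO level was 54.4% of control, a change of -0.88 on the log2 scale (SE 0.078, limma adjusted p 4.29e-06). Orc6 (ENSMUSG00000031697) stood at 1472 and 1436 in control and 1008 and 1041 in cKO, with no overlap. Its log2 change was -0.50 (SE 0.056, limma adjusted p 2.45e-05). Orc2 and Orc3 both changed by -0.18. The other two, Orc4 at 0.06 and Orc5 at -0.03, were not called. In Orc1, 10.8% of the exon length overlaps another gene on the other strand (Gm12743), and 29.8% does in Orc2 (Nif3l1).

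All 3 licensing factors were called lower. Cdc6 (ENSMUSG00000017499), the ATPase that helps ORC load the helicase, stood at 584 and 607 in control and at 369 and 365 in cKO. The groups were well apart, with a change of -0.70 on the log2 scale (SE 0.078, limma adjusted p 2.49e-05). Cdt1 (ENSMUSG00000006585), which escorts the MCM ring to origins, was 720 and 727 in control and 501 and 463 in cKO, a change of -0.59 on the log2 scale (SE 0.074, limma adjusted p 6.27e-05). Gmnn, the inhibitor of Cdt1, fell by 0.38 on the log2 scale.

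The 6 genes of the MCM2-7 ring encode subunits that are present once each in the ring, yet their transcripts changed by different amounts. Mcm5 (ENSMUSG00000005410) stood at 4755 and 4716 in control and at 2547 and 2487 in cKO. That is 53.2% of the control level, a change of -0.91 on the log2 scale (SE 0.044, limma adjusted p 2.31e-08), the smallest adjusted p among the replication genes. Mcm2 (ENSMUSG00000002870) was 2932 and 2928 in control and 1940 and 2010 in cKO, a change of -0.57 on the log2 scale (SE 0.047, limma adjusted p 2.75e-06). Mcm4, Mcm3 and Mcm6 followed at -0.51, -0.44 and -0.39. Mcm7 was the exception: it stood at 5093 and 5116 in control and at 4531 and 5099 in cKO. One cKO library was nearly level with the controls and the other below them, and the change of -0.09 (SE 0.053, limma adjusted p 0.222) was not called. In Mcm7, 12.6% of the exon length overlaps other genes (Cops6, Ap4m1, Mir25 and Mir93).

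Of the 8 genes that turn the loaded ring into a helicase, 7 were called lower. Gins3 (ENSMUSG00000031669), a GINS subunit, stood at 442 and 466 in control and at 249 and 255 in cKO. The cKO mean was 55.5% of control, a change of -0.85 on the log2 scale (SE 0.089, limma adjusted p 1.67e-05). Cdc45 (ENSMUSG00000000028), the partner that joins MCM2-7 and GINS in the moving helicase, was 1728 and 1787 in control and 1035 and 1071 in cKO. Its log2 change was -0.74 (SE 0.055, limma adjusted p 1.12e-06). The GINS subunits differed among themselves: Gins2 changed by -0.60 and Gins4 by -0.24, while Gins1, at -0.20, was not called. Gins2 is uncertain, since 67.3% of its exon length overlaps Gse1 on the other strand and the strand setting of the counting is not given in the sources used here. The kinase subunit Cdc7 changed by -0.58, its activator Dbf4 by -0.20 and Mcm10 by -0.41.

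In polymerase alpha-primase the primase subunits fell most. Prim1 (ENSMUSG00000025395), the catalytic primase, stood at 1078 and 1161 in control and at 629 and 542 in cKO. The cKO level was 52.3% of control, a change of -0.94 on the log2 scale (SE 0.079, limma adjusted p 2.97e-06). Prim2 (ENSMUSG00000026134), the large primase subunit, was 1315 and 1301 in control and 831 and 966 in cKO, a change of -0.54 on the log2 scale (SE 0.071, limma adjusted p 8.74e-05). Pola2 changed by -0.38, and the polymerase subunit Pola1, at -0.13, was not called.

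The catalytic subunits led the falls in both extending polymerases. Pole (ENSMUSG00000007080), which copies the leading strand, stood at 4680 and 4739 in control and at 2720 and 3049 in cKO, a change of -0.71 on the log2 scale (SE 0.054, limma adjusted p 1.35e-06). Its accessory subunit Pole4 (ENSMUSG00000030042) was 1955 and 1784 in control and 1311 and 1321 in cKO, a change of -0.50 on the log2 scale (SE 0.057, limma adjusted p 3.01e-05). Pole3 fell by 0.25 on the log2 scale, and Pole2, the least abundant of all replication transcripts, was not called at -0.06. Pold1 (ENSMUSG00000038644), the catalytic subunit of polymerase delta, stood at 3030 and 3139 in control and at 1804 and 2047 in cKO. Its change was -0.68 (SE 0.059, limma adjusted p 3.75e-06), while Pold2 (ENSMUSG00000020471), at 995 and 999 in control and 741 and 805 in cKO, changed by -0.37 (SE 0.065, limma adjusted p 7.64e-04). Pold3 changed by -0.36. In none of these called genes did the groups overlap.

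The sliding clamp and its loader were called lower in all 6 genes, with the smallest median of the 11 groups apart from ORC, at -0.24. Rfc5 (ENSMUSG00000029363) stood at 736 and 704 in control and at 442 and 483 in cKO, a change of -0.64 on the log2 scale (SE 0.076, limma adjusted p 4.27e-05). Rfc4 (ENSMUSG00000022881) was 1360 and 1371 in control and 921 and 1001 in cKO, a change of -0.51 on the log2 scale (SE 0.061, limma adjusted p 4.41e-05). The remaining loader subunits and the clamp itself changed by less: Rfc1 and Pcna by -0.24, Rfc2 by -0.23 and Rfc3 by -0.19. Part of the exon length overlaps another gene on the other strand in Rfc2 (15.1%, Lat2), Rfc4 (12.65%, Eif4a2) and Rfc5 (10.69%, Wsb2).

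Both genes of Okazaki fragment processing fell, and Lig1 (ENSMUSG00000056394), the ligase that seals the fragments, fell most of all 47. It stood at 2741 and 2761 in control and at 1409 and 1328 in cKO. The cKO libraries held 49.7% of the control level, a change of -1.01 on the log2 scale (SE 0.051, limma adjusted p 3.79e-08). Fen1 (ENSMUSG00000024742), the flap nuclease, was 1726 and 1632 in control and 1098 and 1106 in cKO, a change of -0.61 on the log2 scale (SE 0.055, limma adjusted p 5.44e-06). Fen1 is uncertain, because 84.2% of its exon length overlaps genes on the other strand (Gm10143 and Tmem258).

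RPA was split. Rpa3 (ENSMUSG00000012483) stood at 527 and 523 in control and at 364 and 385 in cKO, and Rpa2 (ENSMUSG00000028884) at 3042 and 2951 in control and 2032 and 2274 in cKO. Both groups of libraries were apart in both genes, with log2 changes of -0.49 (SE 0.080, limma adjusted p 4.63e-04) and -0.48 (SE 0.057, limma adjusted p 4.06e-05). The large subunit Rpa1, at -0.04, was not called. In ribonucleotide reductase both genes were called lower. The cell cycle regulated subunit Rrm2 (ENSMUSG00000020649) stood at 1028 and 1220 in control and at 701 and 739 in cKO, a change of -0.64 on the log2 scale (SE 0.079, limma adjusted p 6.01e-05). Rrm1 (ENSMUSG00000030978) was 4153 and 4240 in control and 3314 and 3423 in cKO, a change of -0.32 on the log2 scale (SE 0.044, limma adjusted p 1.30e-04).

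Per kilobase of exon, the levels of these transcripts spanned a wide range. On the scale of reads per kilobase scaled to library size (RPKM), Pcna was highest in control at P16 at 64.8 (64.2 and 65.4 in the 2 libraries), followed by Pole3 at 51.1, Mcm5 at 47.7 and Mcm7 at 46.4. In control at P14 the order was Pcna at 59.6, Mcm5 at 52.2, Mcm3 at 45.8 and Pole3 at 43.8. The lowest in control at P16 were Pole2 at 2.25, Mcm10 at 3.90 and Pola1 at 4.21. Pcna was highest and Pole2 lowest in each group and kit. Partners in 1 complex differed as well: in control at P16, Gins4 stood at 34.8, Gins1 at 20.2, Gins3 at 6.74 and Gins2 at 6.45. Lengths came from an annotation release other than the one behind the counts, so this order is approximate.

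At P14, 2 days earlier, no replication gene was called in cKO against control (limma). Of the 17270 genes tested, 0.00579% were called lower, which was Ythdc2 alone. In direction, 36 of the 47 were lower and the median log2 change was -0.06. At an unadjusted p under 0.05, 3 genes were lower with limma (Orc1, Prim1 and Pole), beside 1.30% of all genes, and 5 with edgeR, beside 1.48%. edgeR and DESeq2 each called 0 replication genes. In 20 of the 47 genes both cKO libraries lay below both controls and in 2 both lay above, where 14.5% and 15.1% of all genes tested did so. Lig1 stood at 2517 and 2649 in control and at 2417 and 2423 in cKO. Mcm5 was 4678 and 4857 in control and 4352 and 4435 in cKO. Prim1 was 1171 and 1167 in control and 1020 and 1041 in cKO. In these 3 genes the cKO libraries lay below the controls by a small margin, whereas Gins3, at 363 and 401 in control and 377 and 396 in cKO, overlapped.

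**Figure D2:**
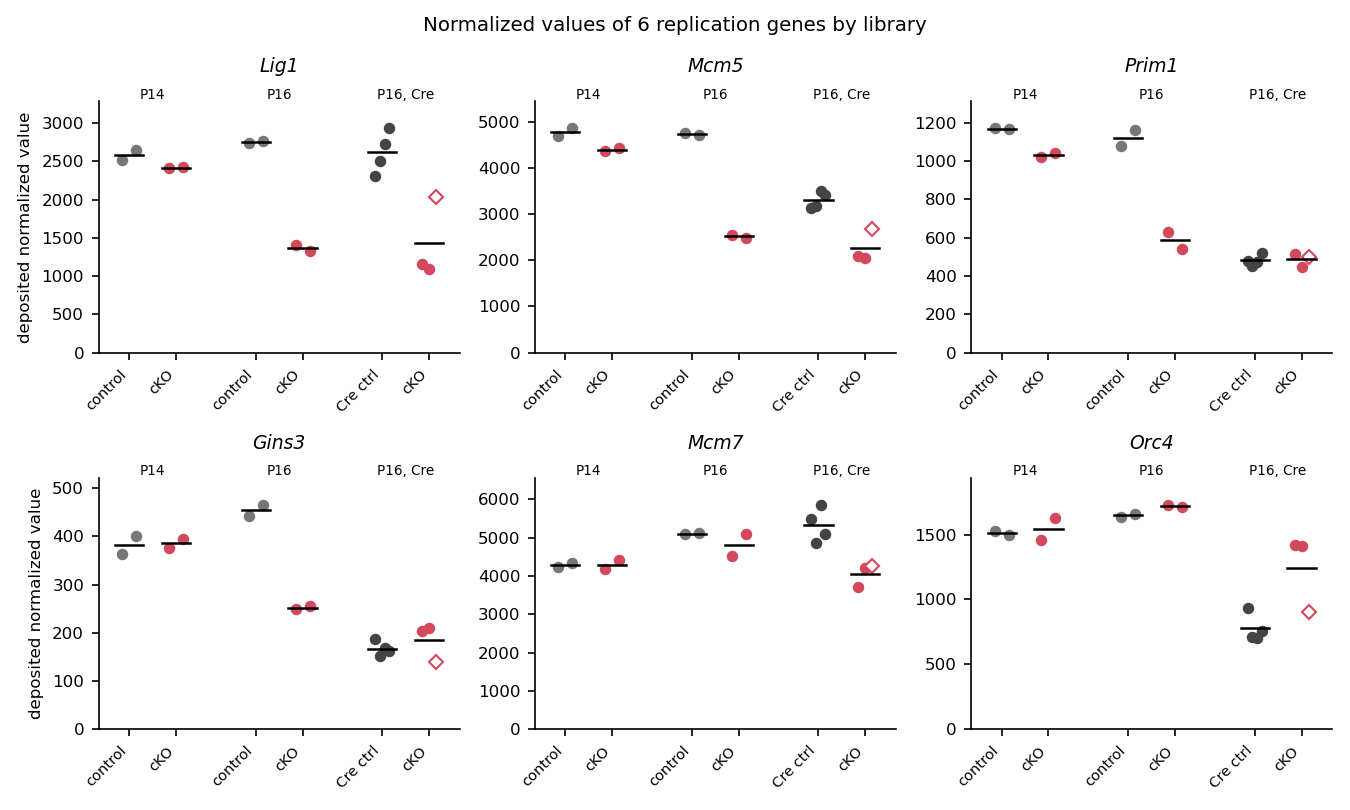
Deposited normalized value (linear scale) of 6 replication genes in each library; dots are libraries, the open diamond is cKO library 3 of the second kit and bars are group means. Each stage and control type is a table scaled on its own. At P16, Lig1 and Mcm5 were called lower in cKO against both control types, Prim1 and Gins3 against control only, Mcm7 against Cre control only and Orc4 against neither.

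The difference between the stages was tested directly, as the interaction of genotype and stage in the 8 libraries of the first kit. For 24 of the 47 genes the cKO change was more negative at P16 than at P14, where 4.49% of all genes tested were called in that direction. None was called the other way, 44 of 47 had a negative difference, and the median was -0.36. The largest differences were in Lig1 at -0.90 (SE 0.069, limma adjusted p 1.97e-04), Gins3 at -0.85 (SE 0.12, limma adjusted p 0.00557), Mcm5 at -0.78 (SE 0.059, limma adjusted p 1.83e-04) and Prim1 at -0.74 (SE 0.11, limma adjusted p 0.0050). The second kit alone, with 1 cKO library a stage, gave 0 called for the same difference in the fit over all 16 libraries, which was chosen after seeing the data. There 38 of 47 were negative, the median was -0.11, and 4 were lower at an unadjusted p under 0.05, beside 4.10% of all genes. edgeR called 0 there too. In the first kit the 24 genes covered all 11 roles, with 5 of 6 genes of the MCM2-7 ring and 2 of 6 of ORC. Of all 18581 genes tested, edgeR called 875 lower, DESeq2 671 and limma without the mean trend 103. Of the replication genes, the count was 25 with edgeR, 24 with DESeq2 and 4 without the mean trend. Leaving out 1 library at a time gave 10 to 31, and the count was 14 without control P14 library 1, 11 without control P14 library 2, 11 without control P16 library 1, 10 without control P16 library 2 and 12 without cKO P16 library 1.

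The stage changes behind this difference were of unequal size in the first kit. From P14 to P16, 5 replication genes rose (13.3% of all genes did) and 3 fell (6.67%) in control, and their median log2 change was 0.000566. Those that rose were Gins2, Pole3, Pold3, Rfc2 and Rpa1, and those that fell were Mcm2, Mcm4 and Pola1. Leaving out 1 library at a time gave 0 to 7 risen and 0 to 3 fallen, with 0 called either way without control P14 library 2 or without control P16 library 1. In cKO over the same time, 32 fell (13.8% of all genes did), none was called higher, and the median was -0.39. The falls in cKO ranged up to -0.92 for Lig1, -0.91 for Prim1 and -0.90 for Mcm5, and all 3 licensing factors and all 4 genes of polymerase alpha-primase were among them. These stage changes share the libraries used in the comparisons of cKO with control.

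The same stage change was measured in the Cre control testes, made with the second kit. From P14 to P16, 14 replication genes were called lower in Cre control, none higher, against 2.75% of all genes, and the median was -0.23. The 14 were Orc1, Cdc6, Cdt1, Mcm2, Mcm4, Mcm5, Mcm6, Prim1, Pole, Rfc1, Rfc5, Lig1, Fen1 and Rrm2. Orc1 had the most negative change at -0.67 (SE 0.13, limma adjusted p 0.00901), with Rrm2 also at -0.67 and Cdc6 at -0.65. The count was 3 without Cre control P14 library 1, 7 without Cre control P14 library 2, 8 without Cre control P16 library 2, 9 without Cre control P16 library 3, and 2 without the mean trend. Set against the P14 mean of its own kit, the median of the 47 genes was -0.01 and -0.02 in the 2 control P16 libraries. It was -0.28, -0.39, -0.30 and -0.20 in the 4 Cre control P16 libraries. The 3 cKO libraries at P16 stood at -0.53, -0.46 and -0.49, the third of these in the second kit. Per the column names, Cre control P16 library 1 and the cKO P16 library of the second kit came from 1 run. Their medians there were -0.28 and -0.49. Every second-kit library of the earlier stage was sequenced in that run too, and the other Cre control P16 libraries in another run. Only P16 library 1 thus compares the stages of Cre control within 1 run. For the called stage changes of Cre control, stage and run cannot be fully told apart, and what part run has was not tested.

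**Figure D3:**
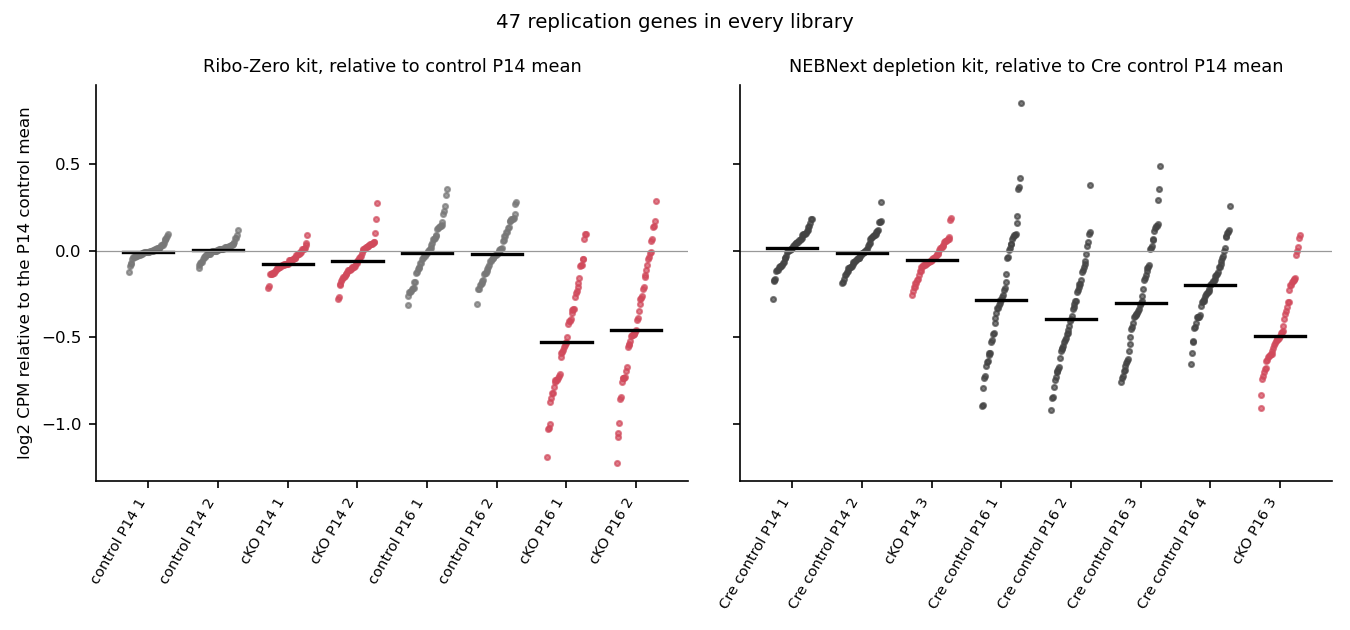
Each of the 47 replication genes in every library, as log2 CPM relative to the P14 control mean of the same kit (left, first kit and control; right, second kit and Cre control). Black bars are medians over the 47 genes. All cKO P16 libraries have medians between -0.53 and -0.46, the control P16 libraries stay near 0 and the Cre control P16 libraries lie between -0.39 and -0.20.

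Whether the stage change differs between the control types was tested in 1 fit over all 16 libraries, chosen after these values were seen. The stage change was lower in Cre control than in control for 43 of the 47 genes, with a median difference of -0.28, but none passed the test (0% of all genes did, smallest limma adjusted p among the replication genes 0.248). At an unadjusted p under 0.05, 24 were lower, against 7.20% of all genes. edgeR called 0 as well. In the same fit, the stage change of cKO in the first kit was lower than that of Cre control for 34 of 47 genes, with a median difference of -0.12. None passed (0.0493% of all genes did, smallest limma adjusted p 0.0513), and 8 were lower at an unadjusted p under 0.05, beside 6.14% of all genes. Every control library was made with the first kit and every Cre control with the second, in other runs, so between control and Cre control, control type and kit cannot be told apart.

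The table of cKO against Cre control at P16 held 4 Cre control libraries and all 3 cKO libraries, and 7 replication genes were called lower, none higher, against 4.77% of all genes. These were Mcm3, Mcm5, Mcm7, Cdc45, Gins2, Pold1 and Lig1. In direction 33 of 47 were lower and the median was -0.14. Over all 19200 genes tested, 10293 were lower and the median was -0.04. In 15 genes all 3 cKO libraries lay below all 4 Cre controls, as in 16.9% of all genes tested. Lig1 stood at 2309, 2506, 2733 and 2936 in Cre control and at 1154, 1095 and 2039.5 in cKO, the last of these from the second kit. Mcm5 was 3133, 3166, 3496 and 3420.2 in Cre control and 2087, 2050.1 and 2669.5 in cKO. In both genes every cKO library lay below every Cre control, and the log2 changes were -0.93 (SE 0.22, limma adjusted p 0.044) and -0.55 (SE 0.11, limma adjusted p 0.039). Mcm7, which was not called against control, was 5496, 4866, 5863 and 5102 in Cre control and 3711, 4203 and 4258 in cKO, a change of -0.39 on the log2 scale (SE 0.093, limma adjusted p 0.0448).

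Of the 3 cKO libraries in that table, 2 differ from every Cre control in kit, and within cKO some genes stood at other levels in the other kit. Orc4 was 931, 712, 702 and 760.5 in Cre control, 1418 and 1415 in the cKO libraries of the first kit and 900.0 in that of the second. Prim1, which fell against control, was 478, 452, 471 and 522 in Cre control and 515, 447 and 499 in cKO, with full overlap. With kit as a covariate, or with libraries of the second kit alone, 0 replication genes were called (limma). The second kit alone gave 39 of 47 lower, a median of -0.16, and 11 lower at an unadjusted p under 0.05, as were 9.93% of all genes. The median over all genes there was -0.03. The cKO library of the second kit lay below all 4 Cre controls in 25 genes and above them in 2, where 30.0% of all genes tested lay below and 24% above. Leaving out any 1 library other than cKO library 3 gave 0 called, and leaving out that library gave 14 lower and 3 higher, where 5584 and 3843 of all 19046 genes tested were called lower and higher. Among the Cre controls, P16 library 2 was itself below the Cre control mean in 43 of 47 genes, with a median of -0.12, close to the 39 genes and -0.16 of the cKO library. Library 2 is part of that mean and the cKO library is not, which makes the deviation of library 2 smaller.

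In the fit over all 16 libraries, chosen after seeing the data, the cKO library of the second kit was called lower than the Cre controls at P16 in 4 replication genes, against 2.19% of all genes. They were Gins4 at -0.61 (SE 0.090, limma adjusted p 0.00962), Pole4 at -0.44 (SE 0.087, limma adjusted p 0.0199), Mcm3 at -0.30 (SE 0.070, limma adjusted p 0.0342) and Mcm5 at -0.30 (SE 0.075, limma adjusted p 0.0454). Gins4 stood at 972, 993, 1026 and 967 in Cre control and at 645 in that library, and Pole4 at 1214, 1165, 1224 and 1133 against 868. This call rests on a single cKO library, whose spread is taken to be that of the other groups, those of the first kit included. The count was 3 with edgeR and 1 without the mean trend. At P14 the same contrast called 0 replication genes, with 32 of 47 lower and 2 lower at an unadjusted p under 0.05, beside 4.24% of all genes.

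The differences of the 2 kits at P16 come from libraries that are not shared. Of the 47 genes, 40 had the same direction in both and 39 were lower in both. Of the 40 genes called lower in the first kit, 35 were lower in the second, with a median of -0.17. Since 46 of the 47 were lower in the first kit and 39 in the second, these counts follow largely from those totals. They do not show agreement gene by gene. The sizes had no clear order in common: across the 47 genes Pearson's r was 0.103 and Spearman's rho 0.0675, given as a description, since all points of an axis share the same few libraries. Lig1 was -1.01 in the first kit and -0.36 in the second, Prim1 -0.94 and 0.06, Rrm2 -0.64 and 0.14, and Gins4 -0.24 and -0.62.

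**Figure D4:**
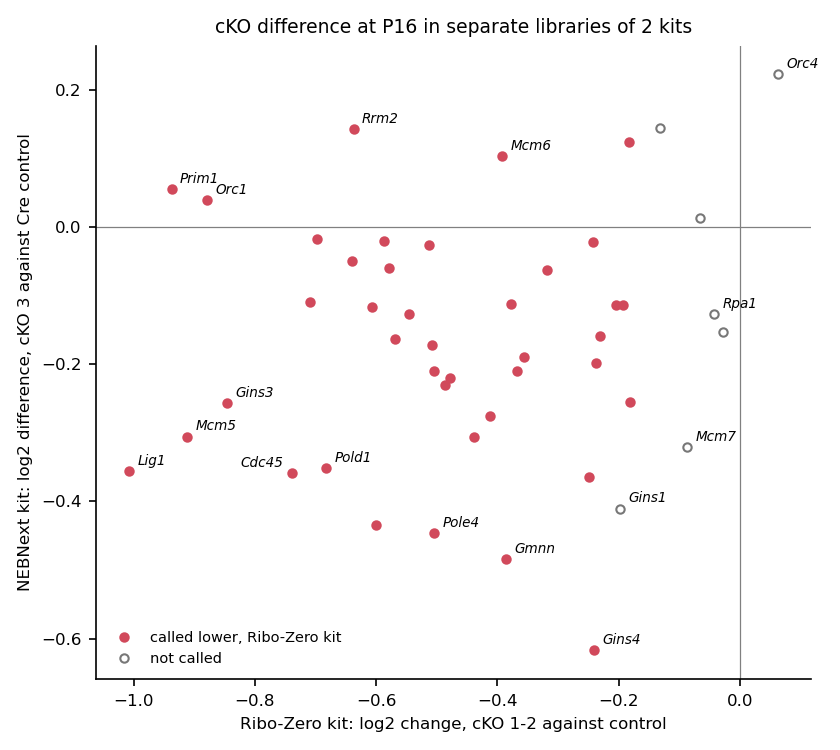
Log2 difference of cKO at P16 in the first kit (x axis, 2 cKO against 2 control libraries) and the second kit (y axis, cKO library 3 against 4 Cre controls) for the 47 replication genes. Filled points were called lower in the first kit. Of the 47 points, 39 lie in the lower left part, without an order along it (r 0.103).

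In the table of cKO against Cre control at P14, no replication gene was called (limma, 0% of all genes called lower), nor with edgeR or DESeq2. In direction 26 of 47 were lower, the median was -0.03, and 0 passed an unadjusted p of 0.05 with limma and with edgeR and 1 with DESeq2. Lig1 stood at 3813 and 3041 in Cre control and at 1957 and 1972 in the cKO libraries of the first kit and 3161 in that of the second. Mcm5 was 4008 and 3935 in Cre control, and 3523, 3609 and 3938 in cKO in the same order. For Lig1 the library of the second kit was within the range of the Cre controls, and those of the first kit were not. Leaving out cKO library 3, so that kit and genotype cannot be told apart, gave 7 higher and 7 lower, where 2435 and 3821 of all 17924 genes tested were called higher and lower.

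Other genes of the replication fork were also mostly lower at P16 in cKO against control. Of 25 listed genes, 20 were called lower and 1 higher, with a median of -0.48. The largest falls were in Atad5, which unloads the clamp, at -0.99 (SE 0.059, limma adjusted p 1.37e-07), and Hells, a chromatin remodeller, at -0.96 (SE 0.044, limma adjusted p 1.80e-08). The rise was in the topoisomerase gene Top1, at 0.15. Of 10 genes of replication-coupled chromatin assembly, 8 were called lower and 0 higher, led by the histone chaperone Asf1b at -0.66 and Mms22l at -0.63. Nucleotide supply was less uniform, with 7 of 13 lower and 1 higher. There, Dck (deoxycytidine kinase) changed by -1.07, and Rrm2b, the p53-inducible reductase subunit, rose by 0.28.

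The E2F and RB family went both ways, with 4 of 13 called lower and 3 higher and a median of -0.03. E2f1, an activator of S phase genes, changed by -0.90 (SE 0.094, limma adjusted p 1.52e-05) and E2f2, another activator, by -0.82, and E2f4 and E2f5 were also called lower. The 3 that rose were the pocket protein genes Rb1 at 0.20, Rbl1 at 0.37 and Rbl2 at 0.24, whose products restrain E2F activity. Of 9 meiotic relatives of replication proteins, 3 were called lower, with Hfm1 at -0.41 and Mcm8 at -0.40, and 1 higher, Helb at 0.34.

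Markers of germ cell stages and of somatic cells moved as well in the same libraries, some lower like the replication genes and others higher. Of 12 spermatogonial markers 11 were called lower and 0 higher, with a median of -0.48, and their summed level was 22640 to 22930 in control and 16590 to 16920 in cKO. Stra8 fell by 1.10 and Lin28a by 0.75 on the log2 scale, and Gfra1 was not called at 0.07. Of 12 markers of preleptotene to zygotene spermatocytes 11 were called lower and 0 higher, with a median of -0.42 and sums of 72030 to 75420 and 55830 to 60580. Mei1 fell by 1.86 and Prdm9 by 1.63 on the log2 scale. Of 12 markers of pachytene and later spermatocytes 7 were called higher and 2 lower, with a median of 0.21 and sums of 56800 to 57830 in control and 63870 to 71070 in cKO. Zpbp changed by 1.41, Pgk2 by 0.86, Ccna1 by -0.84 and Pou5f2 by -0.72.

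Of 12 Sertoli cell markers, 8 were called higher and 0 lower, with a median of 0.28 and sums of 102300 to 107700 in control and 123400 to 137100 in cKO. Kitl rose by 0.49 and Fshr by 0.48. Macrophage markers were called higher in 4 of 5 genes with a median of 0.54 and sums of 2292 to 2504 and 3117 to 3146, Leydig cell markers in 2 of 5 tested, endothelial markers in 2 of 4, peritubular myoid markers in 1 of 4 and red blood cell genes in 0 of 5. What part the cell makeup has in the fall of the replication genes was not tested. In the second kit at P16, where the replication genes had a median of -0.16, spermatogonial markers were lower in 5 of 12 genes with a median of 0.07. There, markers of preleptotene to zygotene spermatocytes were lower in 9 of 12 with a median of -0.29, and Sertoli cell markers were higher in 11 of 12 with a median of 0.18. Markers of pachytene and later spermatocytes were lower there in 8 of 12 with a median of -0.12, the opposite direction to the first kit, and red blood cell genes in 5 of 5 with a median of -0.72.

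**Figure D5:**
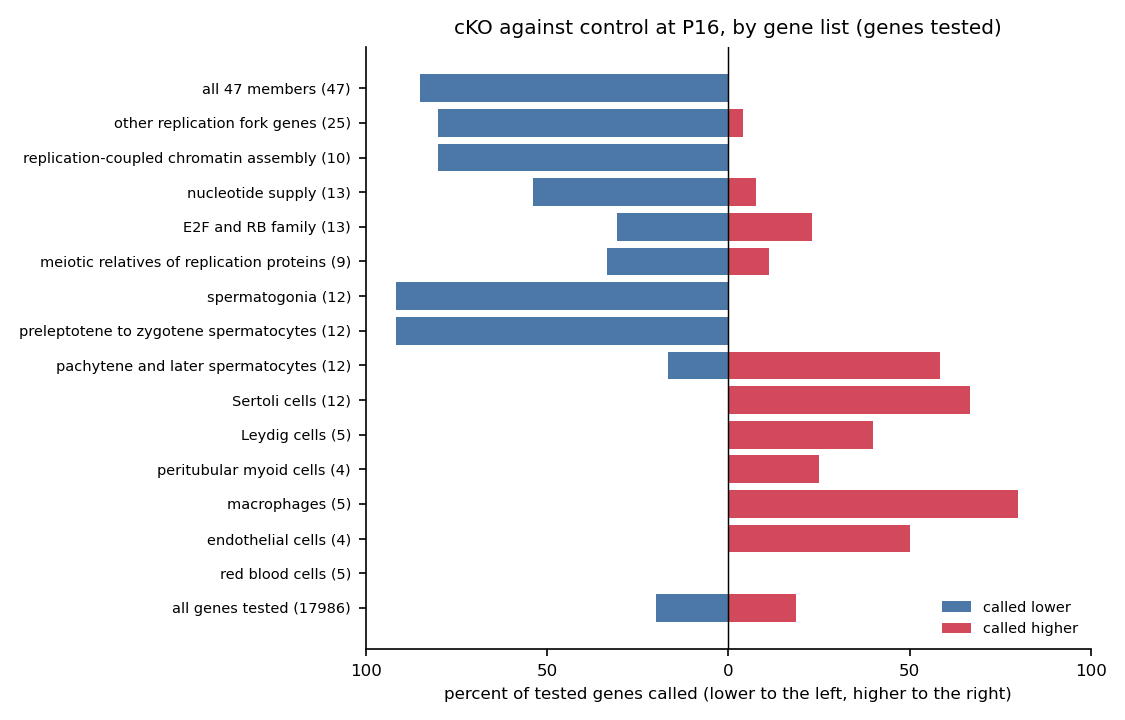
Percent of the tested genes of each list called lower (blue, left) or higher (red, right) in cKO against control at P16, with the number tested in brackets. The replication genes (40 of 47 lower), other fork genes, chromatin assembly, spermatogonial and early spermatocyte markers extend to the left, and Sertoli cell and macrophage markers to the right, beside 19.9% lower and 18.6% higher over all genes.

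At P14, cKO against control called 0 genes of each of these lists (limma), with medians of -0.10 for other fork genes, -0.07 for spermatogonial markers, -0.02 for preleptotene to zygotene markers and 0.27 for pachytene and later markers. Red blood cell genes had the median farthest from 0 of all lists, at -0.78, with 5 of 5 lower and sums of 2534 to 3061 in control and 1651 to 1989 in cKO. In the interaction of genotype and stage, 13 of 25 other fork genes, 6 of 10 chromatin assembly genes, 3 of 13 nucleotide supply genes and 2 of 13 E2F and RB genes were called more negative at P16, beside the 24 of 47 replication genes. Of the germ cell lists, 6 of 12 spermatogonial and 3 of 12 preleptotene to zygotene markers were called in that direction. Of 12 Sertoli cell markers, 5 were called in the opposite direction. Red blood cell genes were also less negative at P16 than at P14 in 5 of 5, with 1 called and a median of 0.73.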

How the data were processed

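Testis RNA-seq libraries, 16 in all, were analysed as 4 deposited tables, 1 for each stage and control type. Per the submitters' processing notes, reads were handled with Trim Galore, STAR, HTSeq and DESeq2 on GRCm39 (mm39). Tool versions, annotation release and strand setting are not given in the sources used here. The values the authors deposited are normalized counts, a signal made by dividing each gene's reads by a factor for library and table. In all 20 columns, 100% of nonzero values gave a whole number of reads to within 0.02, so whole reads were recovered. Alignment summary rows (4) were left out. Gene names came from GENCODE M21 for 52081 of 55414 identifiers, and lengths and overlaps from the same release.

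The main test was limma 3.58.1 (eBayes with trend, R 4.3.3) on log2(value + 1), within a table, for genes that reached 10 in 2 or more libraries, with Benjamini-Hochberg adjustment over all genes and calls at an adjusted p under 0.05. This scale understates the changes of low genes. Stage changes and the interaction were fitted with limma to recovered reads as log2 CPM, with TMM scaling and a prior count of 1, within a kit. edgeR 4.0.16 (quasi-likelihood) and DESeq2 1.42.0 on recovered reads, other pseudocounts (0.1 and 10), other minimum levels, scaling, no trend, kit as covariate, a replicate block and leaving out each library were the alternatives. The scripts were tested on simulated data.

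Members are found by symbol alone, but the names, their roles, the other lists and the rule for giving values in every library (per role, up to 2 genes with the largest called fall and 2 with the largest called rise) were chosen with earlier results of these data known. The labels tie replicate numbers to no animal or batch. The fit over all 16 libraries was added after seeing the data. Figures were drawn with matplotlib 3.10.9.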

Additional observations from a re-analysis of the deposited data

Results flagged for a closer look

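The difference of the cKO effect between P16 and P14 passed the test of that difference (limma, interaction, adjusted p under 0.05) in 24 replication genes. On the log2 scale, P16 minus P14, it was -0.6294 for Orc1, -0.3926 for Orc6, -0.572 for Cdc6 and -0.5234 for Cdt1. In the MCM2-7 ring it was -0.4458 for Mcm2, -0.3373 for Mcm3, -0.4372 for Mcm4, -0.7792 for Mcm5 and -0.3433 for Mcm6. Among helicase activators it was -0.6145 for Cdc45, -0.6862 for Gins2, -0.8478 for Gins3 and -0.5782 for Cdc7. In the polymerases it was -0.7399 for Prim1, -0.5753 for Pole, -0.4622 for Pole4, -0.5788 for Pold1 and -0.3423 for Pold3. The rest were Rfc4 at -0.4045, Rfc5 at -0.5424, Lig1 at -0.8993, Fen1 at -0.5238, Rpa2 at -0.3957 and Rrm2 at -0.5167.

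Among the 4 Cre control P16 libraries, library 4 stood apart for 2 genes. Cdt1 was 833.4 there and 711.4 to 730.6 in the other libraries, and Mcm4 was 1668 there and 1368 to 1414 in the others. Chance gives such a gap in about 1 of 20 groups. All 47 genes were searched in this way, so 2 such genes are near the number that chance gives.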

How the results depend on the processing

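Over 47 genes and the alternatives run, no replication gene's called change reversed direction. In cKO against control at P16, 40 called lower became 22 without the mean trend and 22 with both kits and kit as covariate, and 35 to 42 when 1 library was left out. In cKO against Cre control at P16, the 7 called lower became 4 with edgeR, 11 with DESeq2 (with 1 higher), and 0 without the trend, with the replicate block, with kit as covariate and with the second kit only. Of all 19200 genes tested in that comparison, 916 were called lower in the main test, 527 with edgeR, 2057 with DESeq2 and 14 without the trend. With a pseudocount of 10, 1 replication gene was called higher there, and leaving out 1 library gave 0 to 14 lower and 0 to 3 higher. In cKO against Cre control at P14, the replicate block gave 7 higher and 6 lower (of all 18196 genes, 2876 and 4090), and leaving out 1 library gave 0 to 7 higher and 0 to 7 lower. For the interaction of genotype and stage, the 24 called lower became 4 without the trend and 10 to 31 when 1 library was left out. For P16 against P14 in control, DESeq2 gave 1 higher and 1 lower, no trend gave 0 higher and 1 lower, and leaving out 1 library gave 0 to 7 higher and 0 to 3 lower. In cKO the same contrast had 1 called higher with the replicate block and 0 to 1 when 1 library was left out. In Cre control it had 1 called higher with DESeq2, 2 lower without the trend, 9 lower with the replicate block, and 3 to 15 lower and 0 to 1 higher when 1 library was left out. Over all genes, the number called lower in cKO against control at P16 went from 3587 to 1065 without the trend and 1492 with both kits. Without the trend it went from 834 to 103 in the interaction, and from 518 to 108 for P16 against P14 in Cre control. The fit with both kits joined control and Cre control into 1 group. For the losses the cause was not tested. Same-numbered libraries are not shown to be paired: the correlation of their deviations was 0.0798 at P16 and 0.203 at P14 against control, and 0.304, -0.0704 and 0.225 at P16 against Cre control. With the replicate block, 41 were called lower in cKO against control at P16 and 28 in the interaction. A left-out library that leaves a group with 1 library rests on the assumption that it varies like the others.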
